A study of Drosophila melanogaster with 12 samples.

Results

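The vacuolar H+-ATPase (V-ATPase) is the rotary pump that moves protons into lysosomes, endosomes and synaptic vesicles, and across the apical membrane of secretory epithelia such as the Malpighian tubules. Its cytosolic V1 sector (subunits A to H) hydrolyses ATP, and its membrane V0 sector (subunits a, c, c'', d and e) carries the protons. In *Drosophila* several subunits are encoded by more than one gene, of which a general copy is used in most tissues and the others are restricted to particular tissues, many of them to the testis. The genes described here are the 27 whose name in the deposited gene table starts with Vha followed by a digit, A or P, out of 21076 genes in that table. They comprise 8 general copies (*Vha68-1* and *Vha68-2* both count as general), 5 genes that are the single copy of their subunit in this set, the neuronal copy *Vha100-1*, and 13 restricted copies. A further 5 V-ATPase genes, *VhaSFD* and the *VhaM9.7* genes, fall outside the name rule and are given beside the members.

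The study examined *Mettl16*, a fly RNA m6A methyltransferase gene, with MeRIP-seq, in which methylated RNA fragments are captured with an antibody (IP) and sequenced beside uncaptured input RNA. *Mettl16* mutants were homozygous for the 1-9 allele, a CRISPR/Cas9 deletion of 7 bp in exon 1 that shifts the reading frame, and the controls were *w1118* flies. Every library held poly(A) RNA pooled from about 50 adult males, and each genotype had 3 input libraries. The 6 input libraries gave the expression values, in FPKM (fragments per kilobase of transcript, scaled to the depth of the library). The allele and any other difference in genetic background between the mutant and *w1118* stocks cannot be told apart, since only these genotypes were compared.

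The input libraries were of similar depth, between 5.32 and 6.30 aligned gigabases in mutants and between 6.13 and 6.48 in *w1118*. *Mettl16* itself, listed as *CG7544*, had 0.430, 0.285 and 0.232 FPKM in mutants, against 0.971, 0.824 and 1.19 FPKM in *w1118* (log2 fold change -0.60, SE 0.11, adjusted p = 0.00315), so its values matched the labels. Pearson's correlation of log2(FPKM + 1) across genes was 0.991 to 0.994 within a genotype and 0.946 to 0.955 between genotypes. At a mean of 0.5 FPKM or more, 13866 genes were tested, of which 3172 (22.9%) were higher and 3702 (26.7%) lower in mutants (adjusted p under 0.05), and the median log2 fold change was 0.011. Fold changes here and below are on the log2(FPKM + 1) scale, mutant over *w1118*, which understates the change of genes at low FPKM.

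Nearly all general V-ATPase genes were higher in *Mettl16* mutants, whereas all 5 members that were lower were restricted copies. Of the 14 general, single and neuronal copies, 13 were higher in mutants and none was lower, their median log2 fold change being 0.30, with FPKM ratios of 1.15 to 1.40 among the 13. Of the 13 restricted copies, 5 were lower, 1 (*Vha100-4*) was higher and 7 passed the test in neither direction, their median log2 fold change being -0.26. In all, 14 of 27 members were higher, against 22.9% of all genes tested, and 5 were lower, against 26.7%. The 3 mutant values lay above all 3 *w1118* values for 15 members (29.7% of all genes tested did so) and below them for 5 (30.5% of all genes tested). All 27 members passed the filter on low values. In RNA of whole flies, fewer cells of a type and less RNA per cell cannot be told apart.

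**Figure D1:**
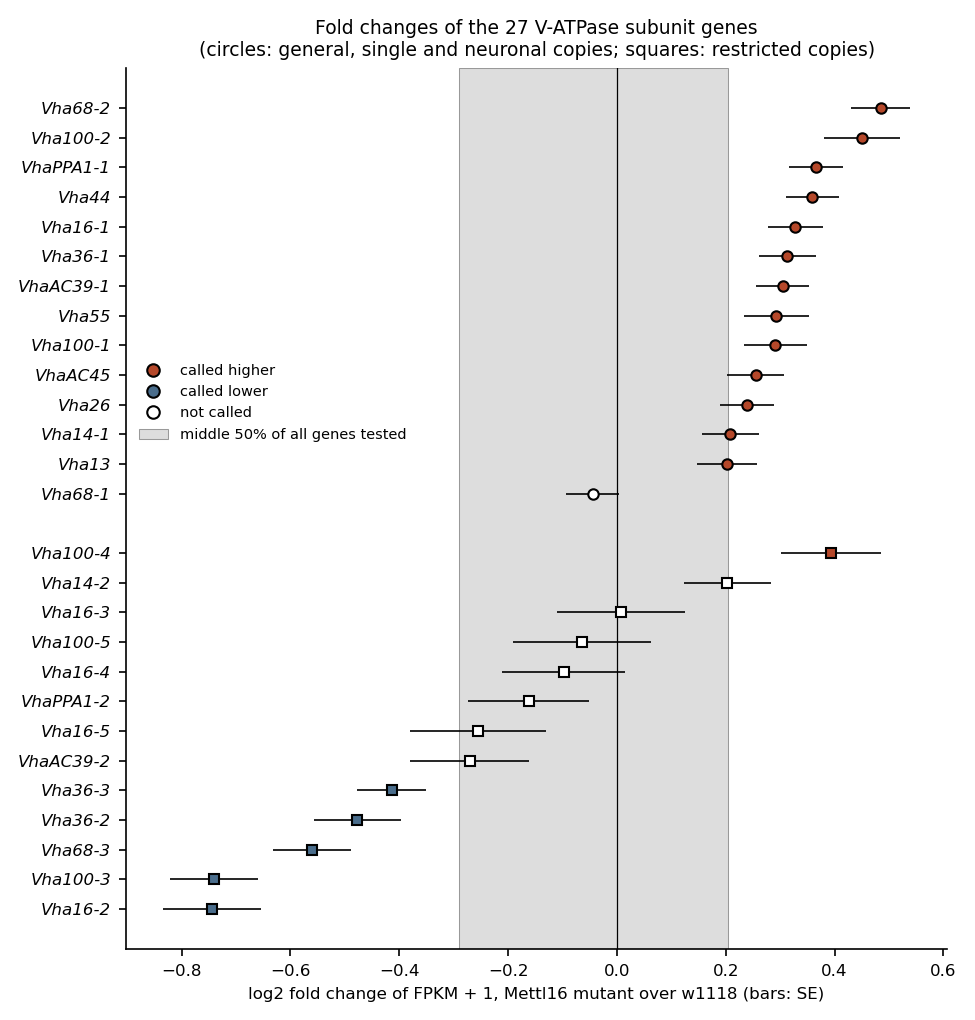
Log2 fold change of FPKM + 1 (x axis, *Mettl16* mutant over *w1118*, bars are standard errors of the limma fit) for each of the 27 genes, with general, single and neuronal copies in the upper block and restricted copies in the lower block. The upper block holds 13 genes called higher between 0.20 and 0.48 and *Vha68-1* at -0.045, while the lower block spreads from 0.39 for *Vha100-4* to -0.74 for *Vha16-2*; the grey band is the middle 50% of all genes tested, -0.29 to 0.20.

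Within the V1 sector, the A subunit carries the catalytic sites, and its 3 genes lie close together on 2L. *Vha68-2*, the more abundant general copy, had 178, 175 and 174 FPKM in mutants, against 119.7, 131 and 124 FPKM in *w1118* (log2 fold change 0.48, SE 0.054, adjusted p = 0.000256), the largest rise among the general copies. *Vha68-1*, the other general copy, had 60.2, 63.01 and 61.7 FPKM in mutants, against 62.6, 63.7 and 64.4 FPKM in *w1118* (log2 fold change -0.045, SE 0.049, adjusted p = 0.481). Its values overlapped between genotypes, and it was the only general copy that was not called. *Vha68-3*, the restricted copy, had 33.5, 37.2 and 35.9 FPKM in mutants, against 57.5, 49.5 and 51.6 FPKM in *w1118* (log2 fold change -0.56, SE 0.072, adjusted p = 0.000475). *Vha68-2* (chr2L:12974322-12978607) and *Vha68-3* (chr2L:12978786-12981293) are transcribed in the same direction with 178 bp between them, and all mutant values lay above *w1118* in the first and below *w1118* in the second.

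The B subunit forms the catalytic head together with A and has a single gene. *Vha55* had 241, 245 and 242 FPKM in mutants, against 184, 205 and 205 FPKM in *w1118* (log2 fold change 0.29, SE 0.060, adjusted p = 0.00477). The lowest of the 6 values was that of *w1118* replicate 1, and the groups did not overlap.

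The peripheral stalks, which hold the head still while the rotor turns, are built from subunits C, E and G, each with a single gene here. *Vha44*, subunit C, which leaves the complex when the pump is switched off, had 79.4, 82.6 and 83.3 FPKM in mutants, against 63.1, 64.3 and 63.1 FPKM in *w1118* (log2 fold change 0.36, SE 0.049, adjusted p = 0.000622). *Vha26*, subunit E, had 238, 243 and 240.5 FPKM in mutants, against 204, 207 and 200.3 FPKM in *w1118* (log2 fold change 0.24, SE 0.049, adjusted p = 0.00452). *Vha13*, subunit G, had 248, 254 and 255 FPKM in mutants, against 226, 209 and 222 FPKM in *w1118* (log2 fold change 0.20, SE 0.055, adjusted p = 0.0162). None of the 3 genes overlapped between genotypes, and *Vha13* showed the smallest rise of the called members. Its call was lost without mutant replicate 2 (adjusted p = 0.0659), mutant replicate 3 (0.0554) or *w1118* replicate 2 (0.0579), with log2 fold changes that stayed at 0.17 or above.

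Subunits D and F form the central rotor shaft. *Vha36-1*, the general D copy, had 123, 120.3 and 116 FPKM in mutants, against 98.2, 93.03 and 98.1 FPKM in *w1118* (log2 fold change 0.31, SE 0.052, adjusted p = 0.00173). Its restricted copies moved the other way. *Vha36-2* had 15.2, 18.5 and 17.3 FPKM in mutants, against 25.4, 23.6 and 22.9 FPKM in *w1118* (log2 fold change -0.48, SE 0.080, adjusted p = 0.00175), and *Vha36-3* had 14.1, 12.9 and 12.8 FPKM in mutants, against 18.1, 17.1 and 18.7 FPKM in *w1118* (log2 fold change -0.41, SE 0.063, adjusted p = 0.00112). All 3 D genes were apart between genotypes. For subunit F, the general copy *Vha14-1* had 177, 181 and 175 FPKM in mutants, against 158, 154 and 148 FPKM in *w1118* (log2 fold change 0.21, SE 0.052, adjusted p = 0.0114), a call that was lost without mutant replicate 2 (adjusted p = 0.0566). The restricted *Vha14-2* had 5.97, 6.01 and 6.64 FPKM in mutants, against 5.86, 4.99 and 4.95 FPKM in *w1118* (log2 fold change 0.20, SE 0.080, adjusted p = 0.0669). It was not called, although its mutant values lay just above those of *w1118*, and it passed the threshold without *w1118* replicate 1 (adjusted p = 0.0199).

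**Figure D2:**
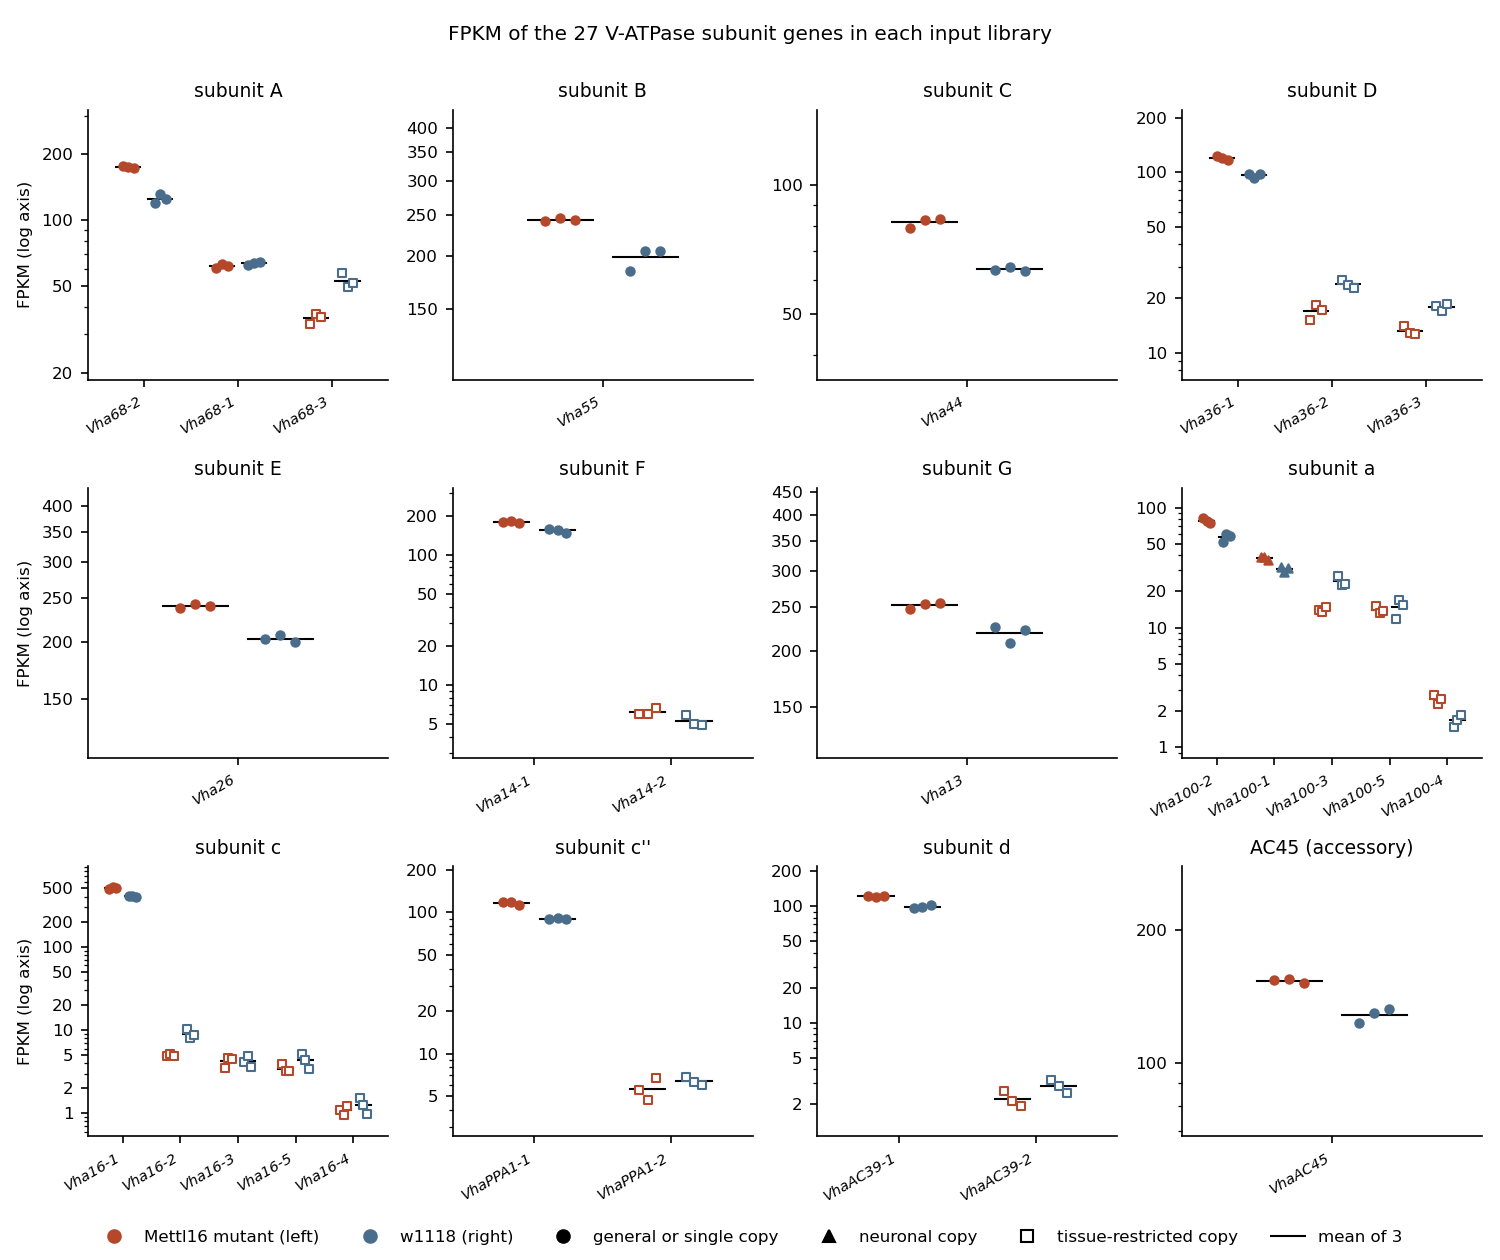
FPKM (y axis, log scale) of every V-ATPase subunit gene in each of the 6 input libraries, with 1 panel per subunit, *Mettl16* mutants on the left and *w1118* on the right of each gene, and a line at the mean of 3 libraries. A general copy is the most abundant in each panel with several copies, and in the A and D panels *Vha68-2* and *Vha36-1* were higher in mutants while the restricted copies (open squares) were lower.

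In the V0 sector, the c subunits form the proton-binding ring, and *Vha16-1* was the most abundant member. *Vha16-1* had 493, 516 and 506 FPKM in mutants, against 401, 405 and 400.3 FPKM in *w1118* (log2 fold change 0.33, SE 0.051, adjusted p = 0.00124). *Vha16-2*, a restricted c copy, had 4.86, 5.16 and 4.87 FPKM in mutants, against 10.4, 8.03 and 8.70 FPKM in *w1118* (log2 fold change -0.74, SE 0.090, adjusted p = 0.000362). This decrease was matched among the members by that of *Vha100-3* (-0.74). The other restricted c copies were not called. *Vha16-3*, which lies 985 bp upstream of *Vha16-2* on the same strand of 3L, had 3.55, 4.63 and 4.49 FPKM in mutants, against 4.09, 4.89 and 3.61 FPKM in *w1118* (log2 fold change 0.0071). *Vha16-4* had 1.09, 0.960 and 1.22 FPKM in mutants, against 1.52, 1.25 and 0.973 FPKM in *w1118* (log2 fold change -0.098). *Vha16-5* had 3.86, 3.20 and 3.21 FPKM in mutants, against 5.15, 4.34 and 3.45 FPKM in *w1118* (log2 fold change -0.26, adjusted p = 0.125). Values of these 3 genes overlapped between genotypes, and *Vha16-5* passed the threshold as lower without *w1118* replicate 3 (adjusted p = 0.0287).

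The c'' subunit is a variant member of the ring, and the d subunit couples the ring to the shaft. *VhaPPA1-1*, the general c'' copy, had 118, 118 and 113 FPKM in mutants, against 89.4, 92.02 and 89.3 FPKM in *w1118* (log2 fold change 0.37, SE 0.050, adjusted p = 0.000623). *VhaPPA1-2*, its restricted copy 2052 bp away on 3R, had 5.51, 4.68 and 6.71 FPKM in mutants, against 6.78, 6.32 and 6.01 FPKM in *w1118* (log2 fold change -0.16, SE 0.11, adjusted p = 0.262), with overlapping values, and it passed as lower without mutant replicate 3 (adjusted p = 0.0452). Of the d genes, the general *VhaAC39-1* had 123, 121 and 123 FPKM in mutants, against 96.2, 99.2 and 102 FPKM in *w1118* (log2 fold change 0.30, SE 0.049, adjusted p = 0.00144). The restricted *VhaAC39-2* had 2.59, 2.14 and 1.90 FPKM in mutants, against 3.24, 2.87 and 2.49 FPKM in *w1118* (log2 fold change -0.27, SE 0.11, adjusted p = 0.0726). It missed the threshold and overlapped between genotypes, and it passed as lower without mutant replicate 1 (adjusted p = 0.0365).

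The a subunit holds the channels through which protons pass and sets the membrane to which the pump goes, and its 5 genes showed the widest range of changes within a subunit. *Vha100-2*, the general copy, had 81.4, 78.2 and 73.98 FPKM in mutants, against 52.1, 60.2 and 58.1 FPKM in *w1118* (log2 fold change 0.45, SE 0.070, adjusted p = 0.00116). *Vha100-1*, the copy that serves synaptic vesicles, had 38.7, 38.7 and 36.5 FPKM in mutants, against 31.8, 29.2 and 31.7 FPKM in *w1118* (log2 fold change 0.29, SE 0.058, adjusted p = 0.00397). Both were apart between genotypes. Of the restricted a copies, *Vha100-3* had 13.96, 13.5 and 14.8 FPKM in mutants, against 27.2, 22.7 and 22.9 FPKM in *w1118* (log2 fold change -0.74, SE 0.081, adjusted p = 0.000223). *Vha100-4*, known from the acid-secreting region of the midgut, had 2.75, 2.28 and 2.52 FPKM in mutants, against 1.47, 1.70 and 1.88 FPKM in *w1118* (log2 fold change 0.39, SE 0.092, adjusted p = 0.00877). It was the only restricted copy called higher, at an FPKM under 3 in every library. *Vha100-5* had 15.03, 13.2 and 13.6 FPKM in mutants, against 11.7, 17.1 and 15.5 FPKM in *w1118* (log2 fold change -0.064, SE 0.13, adjusted p = 0.703), and the *w1118* values fell on both sides of those of the mutants. *VhaAC45*, an accessory V0 protein that helps the pump to assemble, had 154, 155 and 151 FPKM in mutants, against 123, 129.8 and 132 FPKM in *w1118* (log2 fold change 0.26, SE 0.052, adjusted p = 0.00456).

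In all, 8 members overlap other genes on the opposite strand, among them *Vha100-3* (chr2R:18908961-18911895), which lies inside the span of *sano*, and *Vha16-2*, which overlaps *asRNA:CR46049*. The libraries kept strand, but whether strand was used in the expression estimates is not given in the sources used here. *sano* was at 6.13 to 6.59 FPKM in mutants, against 4.98 to 5.49 FPKM in *w1118*, so its mutant values lay above those of *w1118* while those of *Vha100-3* lay below. *asRNA:CR46049* was at 0 to 0.0758 FPKM in mutants, against 0 to 0.385 FPKM in *w1118*.

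Of the V-ATPase genes outside the name rule, 2 of 5 were higher in mutants and 1 was lower, against 22.9% and 26.7% of all genes tested. *VhaSFD*, subunit H, which silences the free V1 sector, had 96.4, 99.98 and 96.95 FPKM in mutants, against 79.7, 81.96 and 81.7 FPKM in *w1118* (log2 fold change 0.27, SE 0.048, adjusted p = 0.00254). *VhaM9.7-b*, a copy of the small V0 subunit e, had 81.04, 85.95 and 82.5 FPKM in mutants, against 68.99, 72.5 and 69.9 FPKM in *w1118* (log2 fold change 0.24, SE 0.052, adjusted p = 0.00623). *VhaM9.7-d*, another e copy, had 16.5, 16.7 and 19.8 FPKM in mutants, against 24.7, 22.9 and 23.2 FPKM in *w1118* (log2 fold change -0.40, SE 0.078, adjusted p = 0.00354). *VhaM9.7-a* (log2 fold change 0.16) and *VhaM9.7-c* (-0.097) passed the test in neither direction.

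The rotary complex needs its subunits together, so the FPKM of all copies of a subunit were also summed. The sum was higher in mutants than in *w1118* for all 12 subunits, with ratios between 1.09 for subunit D and 1.29 for subunit C and no overlap between the libraries of the genotypes. Of all genes tested, 29.7% had all mutant values above all *w1118* values. For B, C, E, G and AC45 the sum is a single gene, and in the others general and neuronal copies made up most of it. The sums therefore largely restate the gene values above. The c subunit summed to 519 ± 11.6 FPKM in mutants and 421 ± 3.34 FPKM in *w1118* (SD, n = 3 each). The A subunit summed to 272 ± 2.00 FPKM in mutants and 242 ± 2.52 FPKM in *w1118* (SD, n = 3 each), and the a subunit to 146 ± 5.24 FPKM in mutants and 128 ± 3.59 FPKM in *w1118* (SD, n = 3 each). For subunits A, D and a these ratios (1.13, 1.09 and 1.14) were smaller than those of *Vha68-2* (1.40), *Vha36-1* (1.25) and *Vha100-2* (1.37) alone.

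The share of a subunit's FPKM that came from its restricted copies was therefore compared, as a measure of which copy made up the transcripts. For subunit a it was 20.9% ± 1.03 in mutants and 31.7% ± 0.749 in *w1118* (SD, n = 3 each). Subunit D gave 20.1% ± 0.816 in mutants and 30.3% ± 0.481 in *w1118*, and subunit A gave 13.04% ± 0.619 in mutants and 21.9% ± 1.90 in *w1118*. In these 3 subunits, and also in c, c'' and d, every mutant library was below every *w1118* library. Of all genes tested, 30.5% had all mutant values below all *w1118* values. The share also falls where a general copy rises, so it largely restates the gene values above. In c'' and d no restricted copy was called, while *VhaPPA1-1* and *VhaAC39-1* were higher. Restricted copies were a smaller part of subunits c, c'', d and F, with mean shares of 1.77% to 4.62% in mutants and 2.82% to 6.60% in *w1118*. Subunit c gave 2.64% ± 0.00848 in mutants and 4.46% ± 0.499 in *w1118*, while subunit F gave 3.38% ± 0.244 in mutants and 3.31% ± 0.230 in *w1118*, where the libraries of both genotypes overlapped.

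**Figure D3:**
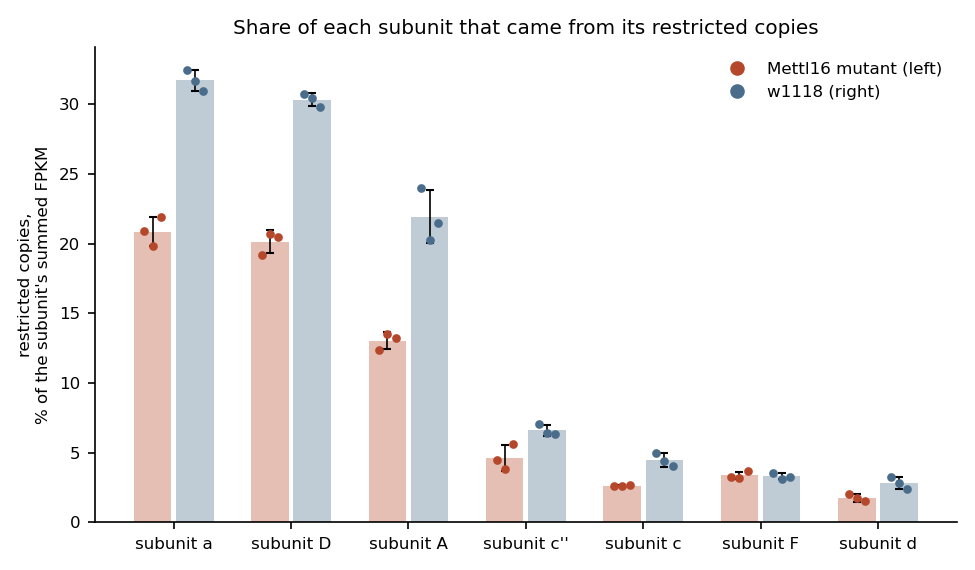
Share of a subunit's summed FPKM that came from its restricted copies (y axis, %), for the 7 subunits with both kinds of copy. Bars are means, error bars are SD of 3 libraries and dots are libraries, with *Mettl16* mutants left of *w1118*; the share for subunit a was 20.9% ± 1.03 in mutants and 31.7% ± 0.749 in *w1118*, and for subunit F the groups overlapped.

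Each restricted copy was also set against the general copy of its subunit within the same library (for subunit A, against the sum of both general copies). Where a subunit has a single general copy, the genotype difference in this log2 ratio is the restricted copy's fold change less that of the general copy. The ratios therefore largely restate the fold changes above and are no separate support for them. No share over other pairs of genes was computed to set beside the counts. The log2 ratio, restricted over general, was lower in mutants for 11 of 13 pairs with no overlap between genotypes. With the sum of all copies of the subunit as the denominator it was 10 of 13, since *Vha100-5* then overlapped (-0.25, exact permutation p = 0.3, against -0.51 with the general copy). For each of the 11 pairs with the general copy as the denominator the exact two-sided permutation test gave p = 0.1, the smallest that 3 against 3 libraries allow (adjusted over 13 pairs, 0.118), so no pair could pass 0.05. The differences, mutant minus *w1118*, were -1.19 for *Vha100-3*, -1.07 for *Vha16-2*, -0.89 for *Vha68-3*, -0.79 for *Vha36-2* and -0.73 for *Vha36-3*, the 5 copies that were called lower by themselves. The remaining 6 of the 11, *Vha16-3*, *Vha16-4*, *Vha16-5*, *Vha100-5*, *VhaAC39-2* and *VhaPPA1-2*, differed by -0.58 to -0.32. None of these 6 was called by itself, and part or all of the difference in their ratios lay in the general copy: *Vha16-3* had a log2 fold change of 0.0071 and *Vha100-5* of -0.064, beside 0.33 for *Vha16-1* and 0.45 for *Vha100-2*. *Vha14-2* (-0.0059, exact permutation p = 0.9) and *Vha100-4* (-0.057, exact permutation p = 0.5) overlapped between genotypes, and for both the sign of the difference changed with a pseudocount of 0.1 (0.025 and 0.10). With the sum of all copies as the denominator, *Vha100-4* was higher in mutants with no overlap (0.21, exact permutation p = 0.1). Since the pairs of a subunit share a general copy, they are not independent of each other.

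The 5 restricted copies called lower changed in libraries in which genes of the male reproductive tract were also lower. Of 22 testis markers, which include *ProtA*, a protamine of sperm chromatin, and *Mst98Ca*, of the sperm tail, 20 were lower and none was higher (median log2 fold change -0.56), at a summed level of 2952 to 3329 FPKM in mutants, against 4347 to 4863 FPKM in *w1118*. *ProtA* averaged 31.4 ± 4.06 FPKM in mutants and 88.7 ± 7.63 FPKM in *w1118* (SD, n = 3 each, log2 fold change -1.47), and *Mst98Ca* averaged 196 ± 11.02 FPKM in mutants and 353 ± 5.36 FPKM in *w1118* (log2 fold change -0.85). Of 10 accessory gland markers, 9 were lower and 1 was higher, with a median of -0.66 and a summed level of 3590 to 4443 FPKM in mutants, against 5786 to 6321 FPKM in *w1118*. Over all genes tested, 22.9% were higher and 26.7% were lower. No marker of either list was at 0 in all libraries. Their part in the lower levels of the restricted V-ATPase copies was not tested.

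Tissues that use the general pump for transport were also looked at through markers. Their counts stand beside 22.9% higher and 26.7% lower over all genes tested. Of 8 Malpighian tubule markers, 6 were higher in mutants and none was lower (median log2 fold change 0.32), at a summed level of 153 to 170.3 FPKM in mutants, against 104.1 to 121.6 FPKM in *w1118*. *ZnT35C*, a zinc transporter of the tubules, averaged 32.9 ± 2.80 FPKM in mutants and 18.05 ± 2.07 FPKM in *w1118* (log2 fold change 0.83, adjusted p = 0.000266). Of 3 genes that mark the acid-secreting copper cells of the midgut, *Ptx1* was higher (4.98 ± 0.297 FPKM in mutants and 2.96 ± 0.0685 FPKM in *w1118*, log2 fold change 0.59) and the others were not called. *lab* had 0.646, 0.607 and 0.597 FPKM in mutants, against 0.756, 0.743 and 0.922 FPKM in *w1118* (log2 fold change -0.16, adjusted p = 0.189), all mutant values being below those of *w1118*, and *dve* overlapped (0.077). The list summed to 7.46 to 8.46 FPKM in mutants, against 5.95 to 6.04 FPKM in *w1118*, most of the difference being that of *Ptx1*. None of 8 neuronal markers was called in either direction (median -0.0051, summed level 114 to 119.7 FPKM in mutants, against 98.9 to 129 FPKM in *w1118*). The 129 FPKM was the sum of *w1118* replicate 1, while those of *w1118* replicates 2 and 3 lay below all mutant sums. In every marker but *CadN*, all mutant values likewise lay above those of *w1118* replicates 2 and 3. *Syx1A* had 9.81 FPKM in *w1118* replicate 1, against 5.20 and 4.90 FPKM in replicates 2 and 3 and 5.91 to 6.64 FPKM in mutants. The lack of calls thus does not show that these markers were unchanged. The most abundant, *nSyb*, of the synaptic vesicle fusion machinery, averaged 58.4 ± 1.17 FPKM in mutants and 52.96 ± 3.24 FPKM in *w1118* (log2 fold change 0.14). It was the only 1 of the 8 whose mutant values all lay above those of *w1118*. *Syt1*, the next most abundant, averaged 28.2 ± 0.987 FPKM in mutants and 28.7 ± 4.73 FPKM in *w1118* (-0.013), with overlapping values. The part of these markers in the changes of the V-ATPase genes was not tested.

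Genes that work with the pump were read from lists of other lysosomal, transport and regulatory genes. Of 20 lysosomal genes tested, 13 were higher in mutants and 2 were lower, against 22.9% and 26.7% of all genes tested. Their median log2 fold change was 0.29, beside 0.30 for the general, single and neuronal V-ATPase copies and 0.011 over all genes. Among them *Gal*, a lysosomal beta-galactosidase, averaged 36.1 ± 2.98 FPKM in mutants and 20.4 ± 1.27 FPKM in *w1118* (log2 fold change 0.79, adjusted p = 0.000124). *Npc2a*, which carries sterols out of lysosomes, averaged 90.5 ± 5.62 FPKM in mutants and 59.4 ± 2.12 FPKM in *w1118* (0.60), and *Ppt2*, a thioesterase, 31.1 ± 1.32 FPKM in mutants and 21.8 ± 1.35 FPKM in *w1118* (0.49). *Gba1b*, a glucocerebrosidase, went the other way, with 7.36 ± 0.114 FPKM in mutants and 10.1 ± 0.380 FPKM in *w1118* (-0.41).

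Of 14 ion transporters of tubule cells, which use the proton gradient or the voltage that the pump makes, 7 were higher and 1 was lower (median 0.20). Over all genes tested, 22.9% were higher and 26.7% were lower. This list shares 3 genes with the tubule markers above, *Irk1*, *Irk3* and *SecCl*, and 2 of them are among the 7. *Irk2*, a potassium channel, averaged 34.7 ± 0.408 FPKM in mutants and 25.4 ± 0.763 FPKM in *w1118* (log2 fold change 0.44), and *Nha1*, a cation/proton antiporter, 9.63 ± 1.01 FPKM in mutants and 6.37 ± 0.938 FPKM in *w1118* (0.53). Of 5 vesicular transporters, which load neurotransmitters with the gradient of the pump, 1 was higher and none was lower. The 1 of 5, near the share over all genes, was *VGlut*, the glutamate transporter (0.21, adjusted p = 0.0378). Of 11 genes for pump assembly and TOR signalling, to which the pump reports amino acids at the lysosome, 4 were higher and 1 was lower (median 0.14). *Tor*, the kinase, averaged 8.37 ± 0.570 FPKM in mutants and 4.73 ± 0.236 FPKM in *w1118* (log2 fold change 0.71, adjusted p = 0.000145). *raptor*, its partner, rose by a smaller amount (0.24), as did *Rbcn-3A*, a part of the assembly factor for V1 and V0 (0.23), and *CG7071*, which shares its locus with *Muted* in the annotation, was lower (-0.44).

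*Mettl16* lies on 2R, so members were also read by chromosome. The 8 members on 2R lie between 0.393 Mb (*Vha36-1*) and 8.52 Mb (*Vha16-1*) from it, measured between gene midpoints. On chromosome 2, 6 of 7 general, single and neuronal copies were higher, with a median log2 fold change of 0.31, and 3 of 6 restricted copies were lower. On the other chromosomes 7 of 7 general, single and neuronal copies were higher, with a median of 0.29, and 2 of 7 restricted copies were lower and 1 was higher. Over all genes tested on any chromosome, 22.9% were higher and 26.7% were lower. Shares of all genes by chromosome were not computed, so nothing about position is read from these counts.

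Isoform shares, the part of a gene's summed isoform FPKM given to each annotated transcript, were called between genotypes in 2 of 14 members with testable isoforms. Of 41 isoforms tested, 4 were called, a call being an adjusted p under 0.05 with a share that moved by over 5 percentage points (9.76% of them, against 4.04% of all isoforms tested). Shares of a gene add up to the whole, so the 4 calls are a pair of opposite changes in each of the 2 genes and not 4 separate changes. The share of genes with a call over all genes was not computed. In *Vha55*, FBtr0082671 (3 exons, 2658 nt, chr3R:12623762-12627701) took 21.3, 21.2 and 24.97% of the gene in mutants, against 4.54, 4.54 and 6.99% in *w1118* (adjusted p = 0.0154). FBtr0082670 (4 exons, 2722 nt, chr3R:12623762-12627829), the main transcript, took 77.1, 77.7 and 73.5% in mutants, against 94.6, 94.3 and 92.1% in *w1118* (adjusted p = 0.0154). Both end at the same 3' position and differ at the 5' end. In FPKM, FBtr0082671 was at 53.1, 53.5 and 62.5 in mutants, against 8.58, 9.58 and 14.7 in *w1118*, while FBtr0082670 was at 192, 196 and 184 in mutants, against 179, 199 and 194 in *w1118*. The 3-exon transcript was apart between genotypes and the 4-exon transcript overlapped.

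In the restricted *Vha16-3*, whose total was not called, FBtr0302359 (2 exons, 633 nt, chr3L:11473291-11473972) took 63.1, 97.1 and 92.6% in mutants and was listed at 0 in all 3 *w1118* libraries (adjusted p = 0.0105). FBtr0076090 (1 exon, 587 nt, chr3L:11473386-11473972) took 36.9, 2.94 and 7.42% in mutants, against 100% in each *w1118* library. The transcripts differ at the 5' end here too, and *Vha16-3* was under 5 FPKM in every library. Without *w1118* replicate 3 the calls of *Vha16-3* were lost (adjusted p = 0.0546), and without any other library those of *Vha55* were lost (adjusted p = 0.0530 to 0.0597), although the changes of share stayed between 15.9 and 18.4 percentage points in size for *Vha55* and between 77.8 and 94.8 for *Vha16-3*.

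**Figure D4:**
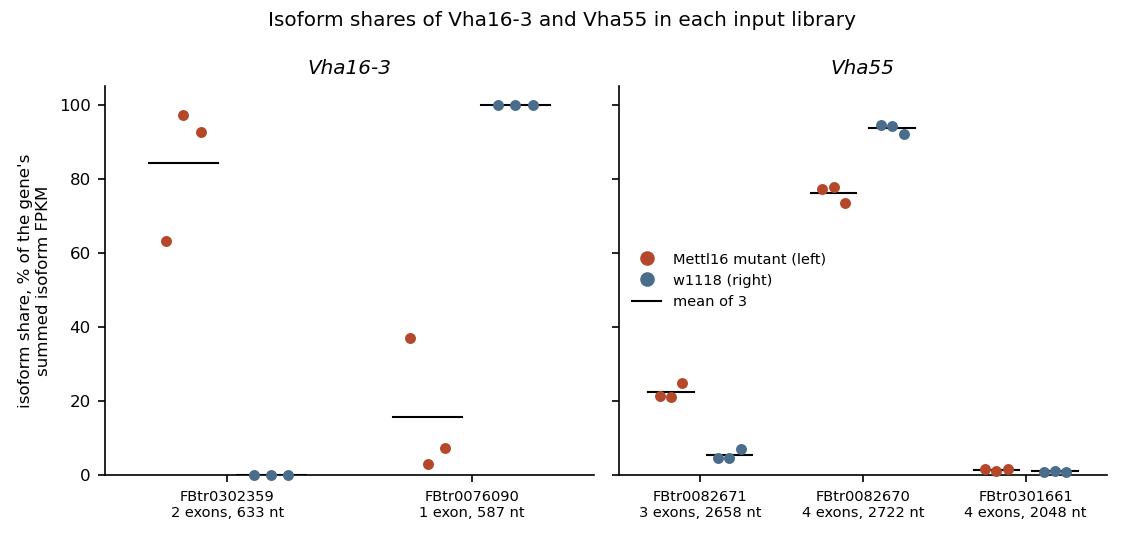
Isoform share (y axis, % of the gene's summed isoform FPKM) of the annotated transcripts of *Vha16-3* (left panel) and *Vha55* (right panel) in each input library, with *Mettl16* mutants left of *w1118* and lines at the mean of 3 libraries. FBtr0302359 of *Vha16-3* lies at 63.1, 97.1 and 92.6% in mutants and at 0 in *w1118*, and FBtr0082671 of *Vha55* at 21.3, 21.2 and 24.97% in mutants and 4.54, 4.54 and 6.99% in *w1118*.

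The deposited peak list of *Mettl16* mutants, which gives the log2 enrichment of IP over input for the 3 replicates together, was read for the same genes. It held 31 peaks in 22 of 27 members (81.5%, against 81.8% of all genes tested), of which 26 were annotated to the 3' UTR, 3 to the 5' UTR and 2 to exons outside the UTRs. All 14 general, single and neuronal copies had a peak, and 8 of 13 restricted copies did. *Vha100-3*, *Vha100-4*, *Vha16-2*, *Vha16-4* and *VhaPPA1-2* had none, and these were at under 15 FPKM in all mutant libraries. Several restricted copies with a peak were also under 15 FPKM in all mutant libraries, among them *VhaAC39-2* (1.90 to 2.59 FPKM) and *Vha16-3* (3.55 to 4.63 FPKM). The highest peak of a gene had a median log2 enrichment of 1.94 over the 22 members with a peak, beside 2.67 over all genes with a peak. By class this median was 1.55 for the general copies, 1.95 for the single copies and 2.57 for the 8 restricted copies with a peak. The last leaves out the restricted copies with no listed peak. The classes also differ in level, with mutant means of 61.6 to 505 FPKM for general and 1.09 to 35.5 FPKM for restricted copies. The part of level in these medians was not tested.

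The highest enrichment among members was 4.22, in the 3' UTR of *Vha44* (chr2R:16324813-16325260). The 3' UTRs of *Vha68-3* (4.08), *Vha55* (3.46, chr3R:12623762-12624032, in a stretch that both called isoforms hold), *Vha14-2* (3.35), *Vha68-1* (3.30) and *Vha68-2* (3.09) followed. All 3 copies of the A subunit were thus among the 6 highest, while their expression rose, fell and was not called. By the highest peak of a gene, *VhaAC45* (0.48), *Vha14-1* (0.82), *Vha16-3* (1.01, in an exon outside the UTRs) and *Vha100-1* (1.10) were at the low end. Weak 3' UTR peaks were also listed beside stronger ones in *Vha44* (0.60) and *Vha16-1* (0.72). The peaks annotated to the 5' UTR were in *Vha16-1* (1.27), *Vha68-1* (0.60) and *Vha26* (0.34).

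**Figure D5:**
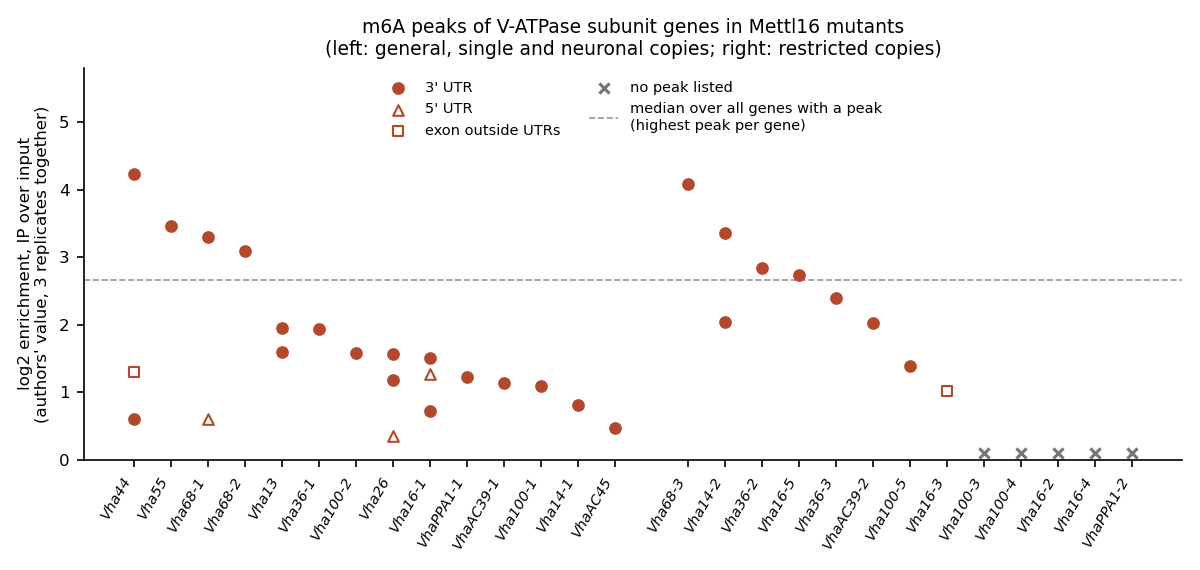
Log2 enrichment of IP over input (y axis, the authors' value for 3 replicates together, with no error) of each m6A peak listed in *Mettl16* mutants, by gene, with general, single and neuronal copies on the left and restricted copies on the right. *Vha44* at 4.22 and *Vha68-3* at 4.08 are the highest, crosses mark the 5 genes with no listed peak, and the dashed line is the median of the highest peak per gene over all genes, 2.67.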

How the data were processed

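MeRIP-seq was done on pools of about 50 adult males, with *w1118* as the control of the *Mettl16* mutants. The authors trimmed reads with fastp, aligned them with HISAT2 and computed the deposited FPKM of genes and isoforms from input libraries with StringTie. Read coverage (signal) per base of each transcript was also deposited by the authors, and coverage over FPKM gave the depth of a library. The deposited log2 enrichment of peaks and its FDR (an adjusted p-value) are the authors' exomePeak values for 3 mutant replicates together, annotated with ANNOVAR. The authors' own comparisons of genes and of peaks between genotypes hold fold changes and p-values and were not used, nor were 9 gene and 18 isoform columns of other samples.

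The 13866 genes that averaged 0.5 FPKM or more entered a two-sided limma fit (version 3.58.1, with trend, R 4.3.3) of log2(FPKM + 1), with p-values adjusted by Benjamini and Hochberg over all of them and called under 0.05. The test of the study, edgeR, needs counts, so it was not used. Whether the 3 libraries of a genotype came from separate rearings is not stated beyond their being biological replicates, so p-values measure the spread between them. Ratios of copies were tested with exact two-sided permutation tests over 20 groupings. For isoform shares, limma was fitted to their arcsine square root where a gene averaged 1 FPKM or more over 2 or more isoforms and the share averaged between 0.01 and 0.99. Peaks were matched by name, and their starts, which count from 0, were raised by 1. All 27 gene spans equal those of Release 6 of the *D. melanogaster* annotation in RefSeq. The tests were tried on simulated data.

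All members of the name rule are described, with values in 6 libraries, and the rule for every other list took its called genes in order of adjusted p, at most 4, or where no gene was called the most abundant ones; some of these are left unprinted. The lists held markers of 5 tissues or cell types (testis, accessory gland, Malpighian tubule, copper cells, neurons) and 5 groups (other V-ATPase genes, assembly and TOR regulators, lysosomal genes, vesicular transporters, tubule ion transporters); 9 listed symbols matched no gene. General and restricted copies were assigned from prior knowledge. The members and lists were chosen with earlier results of these data known. Replicates were not paired. Alternatives were another pseudocount, filter, scaling or spread model, a replicate block, leaving out each library and other thresholds for isoforms and peaks. The peak list of *w1118* and promoter sequences were not analysed here. Tables were handled in Python 3.11.15 with pandas 2.3.3, NumPy 2.4.6 and SciPy 1.17.1, and figures drawn with matplotlib 3.10.9.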

Additional observations from a re-analysis of the deposited data

How the results depend on the processing

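Over 12 alternatives, 308 of 324 member fold changes kept their direction and their side of the threshold, 5 lost a call, 6 gained a call and 5 changed sign, the last all in the uncalled *Vha16-3* (-0.075 to 0.10 when a library was left out) and *Vha100-5* (-0.21 to 0.042). Between 12 and 15 members were higher and 5 or 6 lower when a library was left out, and over all genes 2455 to 3248 were higher and 3270 to 3477 lower. Libraries with the same replicate number shared only that number (correlations of their deviations -0.036, -0.061 and -0.027); with it as a replicate block 13 members were higher and 6 lower: *Vha13* was lost (adjusted p = 0.0565) and *VhaAC39-2* was gained (0.0397), and over all genes 2687 were higher and 3397 lower. With libraries rescaled to the same median, *Vha14-2* was gained (adjusted p = 0.0488).

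The difference of the *Vha100-4* ratio became 0.10 with a pseudocount of 0.1 and 0.21 with the sum of all copies as the denominator, where that of *Vha100-5* was -0.25 and overlapped between genotypes (adjusted exact permutation p = 0.325), and that of *Vha14-2* became 0.025 with a pseudocount of 0.1 and ranged over -0.060 to 0.039 when a library was left out. The range for *Vha100-4* was -0.094 to -0.0034. Among isoforms of the members, 2 were called with a gene mean of at least 5 FPKM, where *Vha16-3* was not tested, 0 with the replicate block (adjusted p = 0.0865 for *Vha16-3* and 0.117 to 0.119 for *Vha55*) and 2 without each library in turn. Over all genes, the isoforms called, 763, came to 94 with the block and to 329 to 456 with a library left out, where fewer libraries enter the fit. The peaks of members were the same 31 in 22 genes at an FDR under 0.05 and when matched by identifier. The list holds peaks that were already called. Matching by name was required to give the same rows as matching by identifier, so neither alternative is a separate check of the count. With 3 libraries per genotype, the exact tests cannot go below 0.1, and the precision of genes under 5 FPKM is limited by their few fragments; the deposited values hold no counts, so no counting interval is given.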

Other observations

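Some isoform estimates varied more within a genotype than between genotypes. For *Vha68-2*, FBtr0080418 took 97.3, 95.5 and 93.1% of the gene in mutants, against 98.04, 77.02 and 25.1% in *w1118*, and FBtr0336614 took 1.85, 2.94 and 6.14% in mutants, against 1.43, 22.6 and 74.2% in *w1118*, while the gene as a whole ranged over 174 to 178 FPKM in mutants and 119.7 to 131 FPKM in *w1118*. For *Vha44*, FBtr0290032 took 30.4, 26.8 and 41.2% in mutants, against 0.420, 61.7 and 30.3% in *w1118*. For both genes the totals of mutants lay above those of *w1118*, while the division among transcripts differed from library to library.

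Of the 41 member isoforms tested, 27 changed their mean share by less than 5 percentage points.

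The neighbouring copies on 3R gave a pair that rose together. *Vha100-4* and *Vha100-2* lie 517 bp apart on the same strand and were both higher in mutants (log2 fold changes 0.39 and 0.45), whereas *Vha68-2* and *Vha68-3*, 178 bp apart, went in opposite directions (0.48 and -0.56). These are values of single pairs, with no test of neighbours.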
